A study of Homo sapiens with 24 samples.

Results

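The transcripts described here come from 8 human genes that destroy, unwind or mark RNA and are tied to the interferon response: ISG20, PNPT1, XRN1, HELZ2, MOV10, ZC3HAV1, N4BP1 and KHNYN. They were chosen by name, as a list of RNA decay and RNA-binding restriction genes, and each matched 1 row of the 60609 rows of the expression table. Earlier results of these data were known when the list was made. The number of its members that rise under interferon is therefore a description and no test of such genes as a class. The study used A549 cells, a human line derived from a lung adenocarcinoma. All cells were transfected for 48 h with siRNA, either a pool against BOP1 (siBOP1), a gene needed for assembly of the large ribosomal subunit, or siRNA against firefly luciferase (siFLuc), an insect gene, as the control. They then received a mock treatment or interferon beta at 1000 U/mL (called IFN here), and were harvested for RNA 8 h or 12 h later. This gives 8 groups of 3 libraries each: siFLuc mock, siFLuc IFN, siBOP1 mock and siBOP1 IFN at both times. The siRNA lowers BOP1 and does not delete it, every group is the same cell line, and there is no group without transfection. Levels are in TPM, a unit of transcript abundance whose values are scaled for transcript length and to a fixed total, so levels of different genes can be set side by side.

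Interferons bind a receptor at the cell surface, and signalling through JAK kinases and STAT proteins switches on a large set of interferon-stimulated genes. Some of their products attack viral RNA. Exonucleases trim RNA from one of its ends, endonucleases cut it internally, and helicases and RNA-binding proteins select which RNA is degraded. Several of these proteins also act in ordinary turnover of cellular messenger RNA or of mitochondrial RNA, so their transcripts are present before any stimulus.

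The libraries of a group are numbered 1, 2 and 4 in the table and are given in that order throughout. The labels number replicates up to 3 and do not say whether they are separate cultures, so p-values measure only the spread between these libraries, which may be technical. The sequencing depth is unknown because TPM keeps no depth. BOP1 lay between 32.4 and 78.8 TPM in the siFLuc libraries and between 10.04 and 19.5 TPM in the siBOP1 libraries, with no overlap. Pearson r of log2 values within a group at 12 h was 0.985 to 0.988 between libraries 1 and 2 and 0.961 to 0.977 with a library numbered 4. At 8 h it was 0.978 to 0.986. Mitochondrial genes held 6.86% of TPM in the siFLuc mock library numbered 4 at 12 h and 10.9% to 15.9% in the other 23 libraries. The epithelial keratins KRT7, KRT8 and KRT18 were high in all 24 libraries, and the 5 epithelial markers summed to 5631 to 8386 TPM, although EPCAM reached only 5.48 TPM. The 4 blood cell markers summed to 1.83 to 5.26 TPM, nearly all of it CD14, and CD3E was listed at 0 in every library. The 3 endothelial markers summed to at most 0.426 TPM and the 3 fibroblast markers, mostly COL1A1, to 5.37 to 19.3 TPM.

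IFN raised nearly the whole set. Of the 8 genes, 7 rose with siFLuc at 8 h, 8 with siBOP1 at 8 h, 7 with siFLuc at 12 h and 8 with siBOP1 at 12 h, and none fell. The gene that did not pass the test with siFLuc was KHNYN, at both times. A change is called here where limma's adjusted p is under 0.05 over the 16062 genes that had 1 TPM or more in 3 or more libraries, and all 8 genes passed that filter. Among all genes tested, the share called higher in these comparisons was 5.77%, 5.99%, 7.06% and 7.17%, and the share called lower was 5.07%, 9.11%, 6.43% and 7.58%. The median log2 fold change of the 8 genes was 2.24, 2.25, 1.99 and 2.21, against -0.09, -0.14, -0.06 and -0.08 for all genes tested. The balance of calls over all genes moved with scaling: after median-of-ratios scaling 1141 genes were higher and 512 lower with siFLuc at 8 h, against 927 and 814, and 1324 and 698 with siBOP1 at 8 h, against 962 and 1464. At 12 h they were 1373 and 803 with siFLuc, against 1134 and 1032, and 1421 and 856 with siBOP1, against 1152 and 1218. The fold changes of the 8 genes were above 0 in each of these fits. Each fold change is of TPM + 1, which understates the change of low genes. In RNA from a whole culture, more cells with a transcript and more RNA per cell cannot be told apart.

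**Figure D1:**
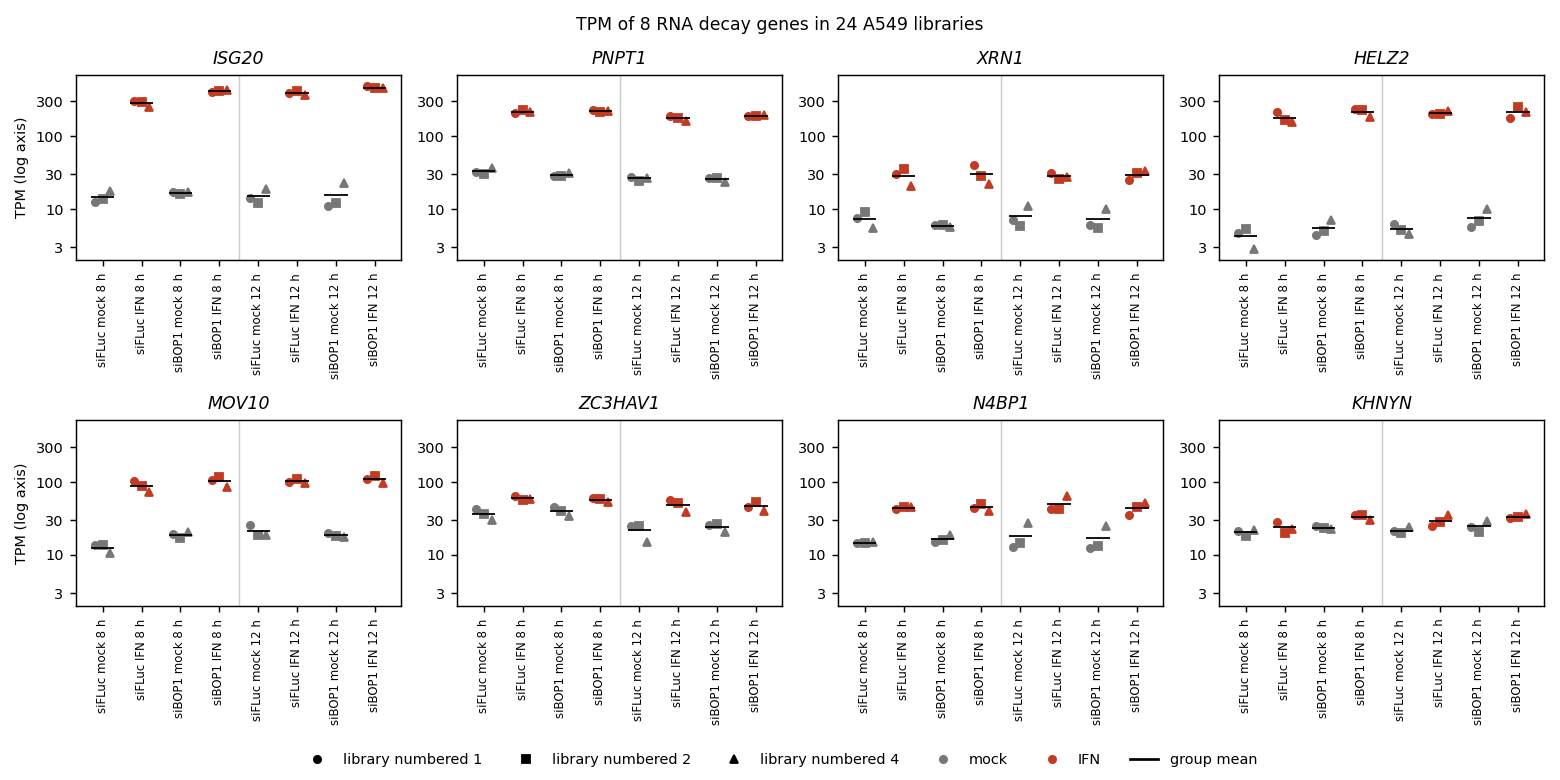
Levels of the 8 genes in each of the 24 libraries, in TPM on a log axis, by siRNA, treatment and time. Grey points are mock and red points IFN libraries, marker shapes give the library number, and bars are group means. IFN and mock libraries are apart in every panel except KHNYN with siFLuc at 8 h, and the widest gaps are those of HELZ2 and ISG20.

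ISG20, an exonuclease that degrades RNA from its 3′ end and is named for its induction by interferon, reached the highest level of the set. The gene (ENSG00000172183.15) lies on the plus strand at chr15:88636153-88656483 in GENCODE 29 on GRCh38, the annotation used for all positions of genes here. With siFLuc at 8 h the mock libraries held 12.7, 13.8 and 17.8 TPM and the IFN libraries 300.1, 298 and 255 TPM. With siBOP1 at 8 h the values were 17.01, 16.1 and 17.4 TPM under mock and 398, 415 and 433 TPM under IFN. All IFN libraries lay far above all mock libraries. At 8 h those with siBOP1 were also above those with siFLuc, a difference that limma did not call (adjusted p = 0.143). At 12 h the IFN libraries held 393, 420.3 and 363 TPM with siFLuc and 484, 459.6 and 451 TPM with siBOP1, again with no overlap and no call by limma (adjusted p = 0.811). Their mock counterparts held 14.05, 12.03 and 18.7 TPM and 11.1, 12.3 and 22.9 TPM. The ratio of mean TPM was 19.3 and 26.3 with siFLuc and 24.7 and 30.1 with siBOP1, at 8 h and 12 h. On the log2 scale of TPM + 1 the changes were 4.19, 4.64, 4.55 and 4.89 in the same order (SE 0.18 each), with adjusted p from 1.00e-14 to 1.43e-13. The libraries numbered 4 were the highest of their group in every mock group.

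PNPT1 encodes polynucleotide phosphorylase, an exonuclease that works from the 3′ end of RNA and is found mainly in mitochondria. It lies on the minus strand at chr2:55634265-55693910 (ENSG00000138035.15). The mock libraries of siFLuc cells held 32.02, 30.7 and 37.03 TPM at 8 h and 27.9, 24.2 and 26.9 TPM at 12 h. Their IFN counterparts held 206, 226 and 214 TPM and 188, 179 and 162 TPM. With siBOP1 the mock values were 28.3, 28.6 and 31.6 TPM at 8 h and 26.98, 26.9 and 23.7 TPM at 12 h. The IFN values of siBOP1 cells, 226, 214 and 224 TPM and 191, 189 and 193 TPM, were again far above them. PNPT1 had the smallest SE of the 8 genes, 0.08, on log2 fold changes of 2.66 and 2.70 with siFLuc and 2.87 and 2.84 with siBOP1 at 8 h and 12 h. Its adjusted p ran from 1.86e-16 to 6.02e-16, and the ratio of mean TPM from 6.47 to 7.50.

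XRN1, the main cytoplasmic exonuclease that degrades messenger RNA from its 5′ end after the cap has been removed, was low in mock cells. It lies on the minus strand at chr3:142306607-142448062 (ENSG00000114127.10). With siFLuc at 8 h the mock libraries held 7.47, 9.06 and 5.55 TPM and the IFN libraries 30.6, 35.1 and 20.7 TPM. With siBOP1 at 8 h they held 5.99, 6.16 and 5.78 TPM and 40.6, 28.6 and 22.3 TPM. Relative to their mean the IFN libraries at 8 h spread more than those of PNPT1, but none came down to the mock range. At 12 h siFLuc cells had 7.01, 5.92 and 10.9 TPM under mock and 31.00, 26.3 and 27.4 TPM under IFN. The siBOP1 cells had 6.13, 5.54 and 10.2 TPM and 25.1, 31.4 and 32.95 TPM. The log2 fold changes were 1.82 and 1.74 with siFLuc and 2.14 and 1.93 with siBOP1 at 8 h and 12 h (SE 0.24), with adjusted p from 1.25e-06 to 2.18e-05. At 12 h the mock libraries numbered 4 were the highest, and the fold changes within the numbers 1, 2 and 4 were 1.998, 1.98 and 1.25 with siFLuc and 1.87, 2.31 and 1.61 with siBOP1. Without the siFLuc mock library numbered 4, which stands apart in its mitochondrial share, the siFLuc fold change at 12 h was 1.97.

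HELZ2 and MOV10 belong to the family of helicases related to UPF1. HELZ2, also described as a coactivator of nuclear receptors, was the lowest of the 8 genes in 3 of the 4 mock groups. It had the largest ratios except with siBOP1 at 12 h, where ISG20 had 30.1 against 28.2 for HELZ2. HELZ2 lies on the minus strand at chr20:63558086-63574239 (ENSG00000130589.16). The siFLuc mock libraries held 4.65, 5.41 and 2.86 TPM at 8 h and 6.33, 5.20 and 4.58 TPM at 12 h. The siFLuc IFN libraries held 215, 168 and 155 TPM and 201, 199 and 222 TPM. In each case a transcript of a few TPM became one of the higher values in the set. With siBOP1 the mock libraries held 4.38, 4.98 and 7.06 TPM at 8 h and 5.66, 6.99 and 10.2 TPM at 12 h, and the IFN libraries 237, 227 and 183 TPM and 178, 252 and 214 TPM. The ratio of mean TPM was 41.7 and 38.7 with siFLuc and 39.4 and 28.2 with siBOP1 at 8 h and 12 h. On the log2 scale of TPM + 1 the changes were 5.10, 5.04, 5.08 and 4.67 (SE 0.21 each), with adjusted p from 3.66e-14 to 1.67e-13. The ratio rests on mock levels that varied within a group, from 2.86 to 5.41 TPM with siFLuc at 8 h.

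MOV10, a helicase of cytoplasmic RNA granules that limits mobile elements and several viruses, rose in all 4 comparisons. It lies on the plus strand at chr1:112673141-112700746 (ENSG00000155363.18). With siFLuc at 8 h the mock libraries held 13.7, 13.7 and 10.5 TPM and the IFN libraries 102, 87.2 and 72.6 TPM. With siBOP1 at 8 h they held 19.5, 17.3 and 20.4 TPM and 106, 118 and 85.98 TPM. The mock libraries of siFLuc cells at 8 h were lower than those of the other 3 mock groups. At 12 h siFLuc cells held 25.9, 18.9 and 18.8 TPM under mock and 101, 109 and 97.8 TPM under IFN, and siBOP1 cells held 20.02, 18.3 and 17.7 TPM and 111, 121 and 95.98 TPM. The log2 fold changes were 2.69 and 2.23 with siFLuc and 2.37 and 2.48 with siBOP1 at 8 h and 12 h (SE 0.15), with adjusted p from 7.24e-12 to 1.73e-10. Exons of MOV10 share 145 bases with an antisense gene, AL603832.1, which was listed at 0 TPM in all libraries.

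ZC3HAV1 encodes the zinc finger antiviral protein ZAP, which binds RNA rich in CpG and recruits decay enzymes. It lies on the minus strand at chr7:139043520-139109719 (ENSG00000105939.13). It had the highest mean of the 8 genes in both mock groups at 8 h, and a modest rise. The siFLuc mock libraries held 42.99, 36.5 and 29.9 TPM at 8 h and the IFN libraries 63.7, 56.7 and 59.2 TPM. The siBOP1 libraries held 44.97, 40.3 and 33.8 TPM under mock and 60.9, 58.1 and 53.6 TPM under IFN at 8 h. Mock and IFN libraries did not overlap, although the gap was small beside those of ISG20 and HELZ2. At 12 h the siFLuc values were 24.9, 24.98 and 15.3 TPM under mock and 56.7, 51.7 and 38.8 TPM under IFN. The siBOP1 values at 12 h were 25.5, 26.4 and 20.7 TPM and 45.2, 52.8 and 40.6 TPM. The log2 fold changes were 0.71 at 8 h and 1.16 at 12 h with siFLuc (adjusted p = 0.00995 and 7.10e-05) and 0.53 and 0.91 with siBOP1 (adjusted p = 0.0466 and 0.00103), with an SE of 0.18 each. Without the siFLuc mock library numbered 4 at 12 h, the lowest of its group, the siFLuc fold change there was 0.93. The 8 h calls were the weaker ones. With siFLuc the call was lost without the mock library numbered 4 (log2 fold change 0.58, adjusted p = 0.067), and with siBOP1 it was lost in 3 of 9 alternative settings and on leaving out 5 of the 6 libraries in turn, with adjusted p up to 0.19.

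KHNYN and N4BP1 carry a related endonuclease domain of the NYN type, and KHNYN is a cofactor through which ZAP acts on CpG-rich viral RNA. N4BP1, which cuts viral messenger RNA and also restrains inflammatory signalling, lies on the minus strand at chr16:48538726-48620148 (ENSG00000102921.8). With siFLuc at 8 h its mock libraries held 14.6, 14.8 and 14.96 TPM and its IFN libraries 42.6, 44.97 and 46.2 TPM. With siBOP1 at 8 h they held 15.1, 16.03 and 18.9 TPM and 44.1, 49.7 and 40.5 TPM. Mock and IFN libraries were well apart at 8 h. At 12 h siFLuc cells had 12.8, 14.4 and 27.6 TPM under mock and 42.8, 42.95 and 65.3 TPM under IFN, and siBOP1 cells had 12.6, 13.3 and 25.01 TPM and 35.3, 45.6 and 52.3 TPM. In each 12 h group the library numbered 4 was the highest. The log2 fold changes were 1.53 and 1.46 with siFLuc and 1.38 and 1.39 with siBOP1 at 8 h and 12 h (SE 0.24), with adjusted p from 1.34e-04 to 3.80e-04. Within the numbers 1, 2 and 4 at 12 h they were 1.67, 1.51 and 1.21 with siFLuc and 1.42, 1.71 and 1.03 with siBOP1. Without the siFLuc mock library numbered 4 at 12 h the siFLuc fold change was 1.79.

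KHNYN was the member that moved least. It lies on the plus strand at chr14:24429286-24441834 (ENSG00000100441.10). The siFLuc mock libraries held 21.2, 18.4 and 21.8 TPM at 8 h and the IFN libraries 28.7, 19.9 and 22.99 TPM. The siBOP1 libraries held 25.2, 23.1 and 22.9 TPM under mock and 34.9, 35.6 and 29.8 TPM under IFN at 8 h. The mock and IFN libraries overlapped with siFLuc at 8 h and nowhere else. At 12 h the siFLuc values were 21.1, 19.9 and 23.9 TPM under mock and 25.1, 27.9 and 35.5 TPM under IFN, and the siBOP1 values 24.4, 20.3 and 29.1 TPM and 31.8, 33.02 and 36.1 TPM. With siBOP1 the log2 fold changes were 0.48 at 8 h and 0.45 at 12 h (SE 0.14, adjusted p = 0.0292 and 0.0422), and these calls were lost on leaving out 4 and 5 of the 6 libraries in turn, with adjusted p up to 0.115 and 0.212. Both were also lost without a filter (adjusted p = 0.0535 and 0.0744), and the 12 h call with only the groups compared (adjusted p = 0.102). With siFLuc the log2 fold changes were 0.20 at 8 h (adjusted p = 0.448) and 0.42 at 12 h (adjusted p = 0.0598). The 12 h difference passed the threshold with the library number as a block (adjusted p = 0.00628). It did so too without the siFLuc mock library numbered 4 (0.49, adjusted p = 0.0454). The same held without the siFLuc IFN library numbered 1 (0.52, adjusted p = 0.0378) and with median-of-ratios or quantile scaling (adjusted p = 0.00495 and 0.00720). Among genes with a mean of at least 5 TPM its adjusted p was 0.0491. With the block 1794 genes were called higher and 2532 lower in this comparison, against 1134 and 1032 without it. Exons of KHNYN share 2037 bases with SDR39U1 on the opposite strand, whose own log2 fold changes under IFN were -0.19, -0.11, -0.22 and -0.14 with none called, and 315 bases with CBLN3. Whether the counting used strand is not given in the sources used here, so reads of these genes may not be separated.

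**Figure D2:**
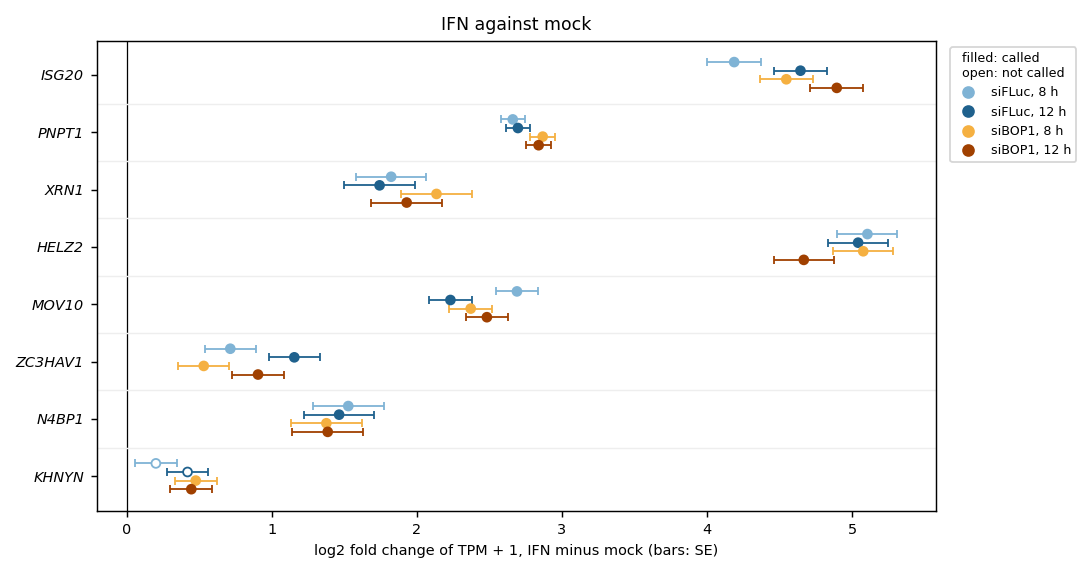
Log2 fold change of TPM + 1, IFN minus mock, for the 8 genes in siFLuc and siBOP1 cells at 8 h and 12 h. Bars are standard errors, filled points passed limma's adjusted p of 0.05 and open points did not. Only KHNYN with siFLuc is open, at 0.20 and 0.42.

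The order of levels within the set changed with treatment. In siFLuc mock cells at 8 h the mean was 36.4 ± 6.56 TPM for ZC3HAV1 and 33.3 ± 3.34 TPM for PNPT1 (SD, n = 3 each), whose libraries overlapped. KHNYN followed at 20.4, N4BP1 and ISG20 at 14.8 each, MOV10 at 12.6, XRN1 at 7.36 and HELZ2 at 4.31 TPM, and of these neighbours only N4BP1 with ISG20 and ISG20 with MOV10 overlapped. Under IFN at 8 h in the same cells ISG20 led at 284 ± 25.7 TPM (SD, n = 3). PNPT1 at 215 and HELZ2 at 179 TPM overlapped each other, and MOV10 at 87.3, ZC3HAV1 at 59.9 and N4BP1 at 44.6 TPM were each apart from their neighbours. XRN1 at 28.8 and KHNYN at 23.9 TPM overlapped. ISG20 was thus among the middle genes under mock and the first under IFN, and it was first in all 4 IFN groups, with no overlap with the next gene. ZC3HAV1 or PNPT1 was first in all 4 mock groups. Under IFN at 12 h HELZ2 was second with either siRNA, at 208 and 215 TPM, ahead of PNPT1 at 176 and 191 TPM, and the 2 genes overlapped with siBOP1 only.

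Promoter sequences are shown for ISG20, where a search found the core of the interferon-stimulated response element (ISRE), and for HELZ2, PNPT1 and ZC3HAV1, which had only a shorter site. The ISRE is bound by interferon-activated complexes that hold IRF9 and by interferon regulatory factors. The sequences are RefSeq promoters on GRCh38.p14, from 250 bases before to 50 bases after an annotated start. All 8 genes matched, with 12 promoters: 3 for MOV10, 2 each for KHNYN and HELZ2, and 1 each for the others. The ISRE core was searched as GAAA, any 2 bases, GAAA on both strands. The shorter site, GAAACT on both strands, was added after the letters of these promoters had been seen. It can overlap the core but is not an ISRE by itself. A further interferon response site, known as GAS, was searched as TTCNNNGAA. Matches are in capitals below. They are ISG20 at chr15:88638766-88639065 on the plus strand, HELZ2 at chr20:63574190-63574489 on the minus strand, PNPT1 at chr2:55693795-55694094 on the minus strand and ZC3HAV1 at chr7:139109671-139109970 on the minus strand, each written 5′ to 3′ on its own strand.
ISG20: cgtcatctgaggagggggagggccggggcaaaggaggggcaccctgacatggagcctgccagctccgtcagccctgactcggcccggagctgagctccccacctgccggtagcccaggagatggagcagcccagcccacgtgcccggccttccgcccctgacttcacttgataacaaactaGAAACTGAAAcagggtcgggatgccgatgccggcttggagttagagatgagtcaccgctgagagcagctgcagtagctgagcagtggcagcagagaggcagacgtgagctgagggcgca
HELZ2: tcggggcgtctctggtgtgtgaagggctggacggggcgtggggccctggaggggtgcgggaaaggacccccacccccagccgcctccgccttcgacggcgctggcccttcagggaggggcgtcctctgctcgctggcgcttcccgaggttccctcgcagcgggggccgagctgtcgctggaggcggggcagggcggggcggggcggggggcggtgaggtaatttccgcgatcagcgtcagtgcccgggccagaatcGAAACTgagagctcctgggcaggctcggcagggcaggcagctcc
PNPT1: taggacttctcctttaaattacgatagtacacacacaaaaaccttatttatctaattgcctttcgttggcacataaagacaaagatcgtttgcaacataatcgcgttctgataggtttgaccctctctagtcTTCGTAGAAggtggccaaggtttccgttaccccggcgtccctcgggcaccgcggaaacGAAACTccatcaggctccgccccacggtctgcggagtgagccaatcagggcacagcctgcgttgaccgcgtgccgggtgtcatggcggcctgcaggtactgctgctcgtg
ZC3HAV1: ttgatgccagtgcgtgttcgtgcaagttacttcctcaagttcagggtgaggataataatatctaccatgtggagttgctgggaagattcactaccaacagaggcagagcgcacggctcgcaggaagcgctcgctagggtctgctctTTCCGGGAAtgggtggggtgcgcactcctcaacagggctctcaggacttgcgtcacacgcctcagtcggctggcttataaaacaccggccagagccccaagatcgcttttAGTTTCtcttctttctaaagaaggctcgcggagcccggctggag

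The ISRE core was found in ISG20 alone of the 8 genes, from base -69 to base -60 counted with the start as 0. It is in 3.57% of the 35116 RefSeq promoters of this length and in at least 1 promoter of 4.38% of the 27305 genes. The shorter site was in 4 of the 8 genes: at -69 to -64 in ISG20, at -60 to -55 in PNPT1, at 6 to 11 in HELZ2 in the first of its promoters, and at 6 to 11 on the opposite strand in ZC3HAV1. It is in 14.8% of all promoters and 17.6% of all genes. The 2 genes with the largest log2 fold changes under IFN, HELZ2 and ISG20, are among these 4, as are PNPT1 with a middling change and ZC3HAV1 with a small one. Because the shorter site was picked from these promoters and lies within the core match of ISG20, its matches test no link to the fold changes. GAS letters were in PNPT1 from -118 to -110, in ZC3HAV1 from -104 to -96 and in the other promoter of KHNYN from -222 to -214, and they are in 7.66% of all promoters and 9.38% of all genes. None of these letters was in the promoters of XRN1, MOV10 or N4BP1, which says nothing on whether the factors bind elsewhere. A match is a description of letters, and binding was not measured.

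**Figure D3:**
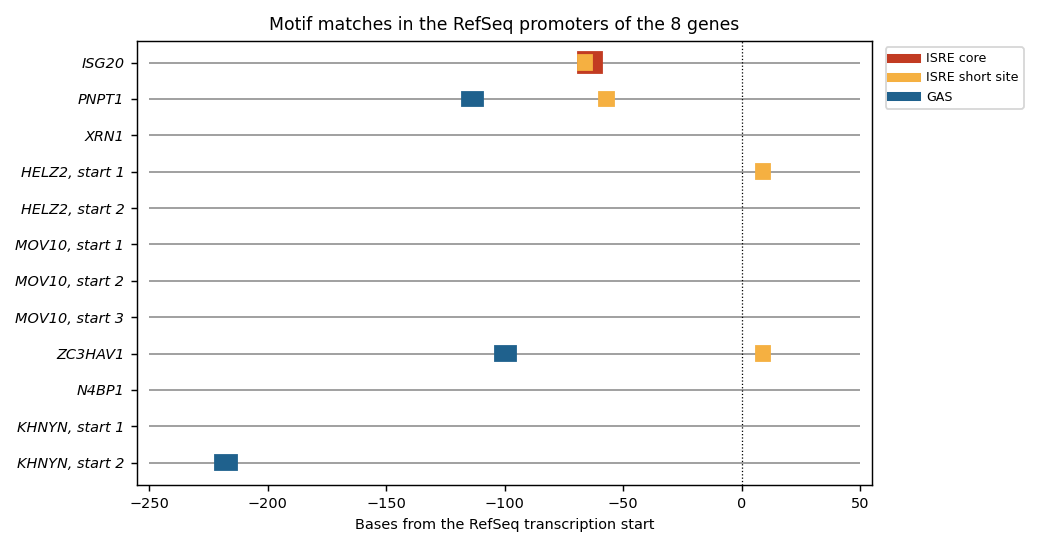
Matches of the ISRE core (red), the shorter site GAAACT (orange, ISRE short site in the legend) and GAS (blue) in the 12 RefSeq promoters of the 8 genes, in bases from the annotated start at 0. The only ISRE core match is in ISG20, and XRN1, MOV10 and N4BP1 have no match.

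Other RNA decay genes were called under IFN at a share near that of all genes. From 9 lists of partners, relatives and decay complexes, 112 genes in all, 108 passed the filter. Under IFN, 9 were called higher and 2 lower with siFLuc at 8 h, 8 and 9 with siBOP1 at 8 h, 11 and 3 with siFLuc at 12 h, and 11 and 9 with siBOP1 at 12 h. Called in either direction were 10.2%, 15.7%, 13% and 18.5% of the listed genes, against 10.8%, 15.1%, 13.5% and 14.8% of all genes tested. The median log2 fold changes of the listed genes were -0.08, -0.08, -0.04 and -0.04, close to those of all genes tested.

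The listed genes called higher in all 4 comparisons were 7, of which 5 are described. PARP12 and TRIM25 are partners or relatives of ZAP: PARP12, a mono-ADP-ribosyltransferase with ZAP-like zinc fingers, had a mean log2 fold change of 3.94 over the comparisons, and TRIM25, a ubiquitin ligase required by ZAP, of 2.38. In TPM PARP12 was at 11.01 ± 1.78 under mock and 187 ± 18.5 under IFN with siFLuc at 8 h (SD, n = 3 each). ZNFX1, a helicase related to UPF1 like HELZ2 and MOV10, had 2.95. The decapping activator DCP1A had 1.22 and PATL1, a scaffold that links decapping to deadenylation, 1.00. Decapping makes the substrate of XRN1, but DCP2, from the same list as DCP1A and PATL1, was not called. It was at -0.16 and 0.09 at 8 h and at 0.10 and -0.19 at 12 h, with siFLuc and siBOP1. PNRC1 of that list was also called higher with siBOP1 at 8 h and with both siRNAs at 12 h. DXO was called lower with siBOP1 at both times, LSM5 with siBOP1 at 8 h, and LSM4 and NUDT16 with siBOP1 at 12 h. The nuclear counterpart of XRN1, XRN2, had a mean of 0.05 and was not called.

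The relatives and partners named next were not called in any of the 4 comparisons. ISG20L2 had a mean log2 fold change of -0.13, ZC3HAV1L of -0.05, HELZ of 0.07, UPF1 of -0.06 and SUPV3L1, the mitochondrial helicase that works with polynucleotide phosphorylase, of -0.11. NYNRIN and MOV10L1 stayed under the filter, with group means of at most 0.168 TPM for NYNRIN and 0.048 TPM for MOV10L1. No gene of the mitochondrial RNA list, to which SUPV3L1 belongs, was called in any of the 4 comparisons: 0 of 7 tested, too few to read against these shares. Of the 19 exosome and Ski complex genes, 0 were higher and 1 lower with siFLuc at 8 h, 0 and 4 with siBOP1 at 8 h, 0 and 1 with siFLuc at 12 h, and 1 and 3 with siBOP1 at 12 h. Of all genes tested 5.07%, 9.11%, 6.43% and 7.58% were called lower in that order, and lower calls over all genes moved with scaling. The lower genes of that list included DIS3L, a cytoplasmic exosome nuclease, and HBS1L, whose short form joins the Ski complex to the exosome. DIS3L was at -0.55, -0.53, -0.285 and -0.48, and HBS1L at -0.38, -0.58, -0.44 and -0.76, in the same order. By limma DIS3L was not called with siFLuc at 12 h (adjusted p = 0.216), nor HBS1L with siFLuc at 8 h (adjusted p = 0.102). Both were called in the other comparisons, with adjusted p down to 0.015 for DIS3L and 0.00084 for HBS1L. ISG20 itself has 11 listed relatives and fellow 3′ exonucleases, of which none was called higher and REXO2 and ERI3 were called lower at 12 h, REXO2 at -0.25 and -0.37 and ERI3 at -0.39 and -0.50 in siFLuc and siBOP1 cells. REXO2 was also called lower with siBOP1 at 8 h, at -0.35.

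**Figure D4:**
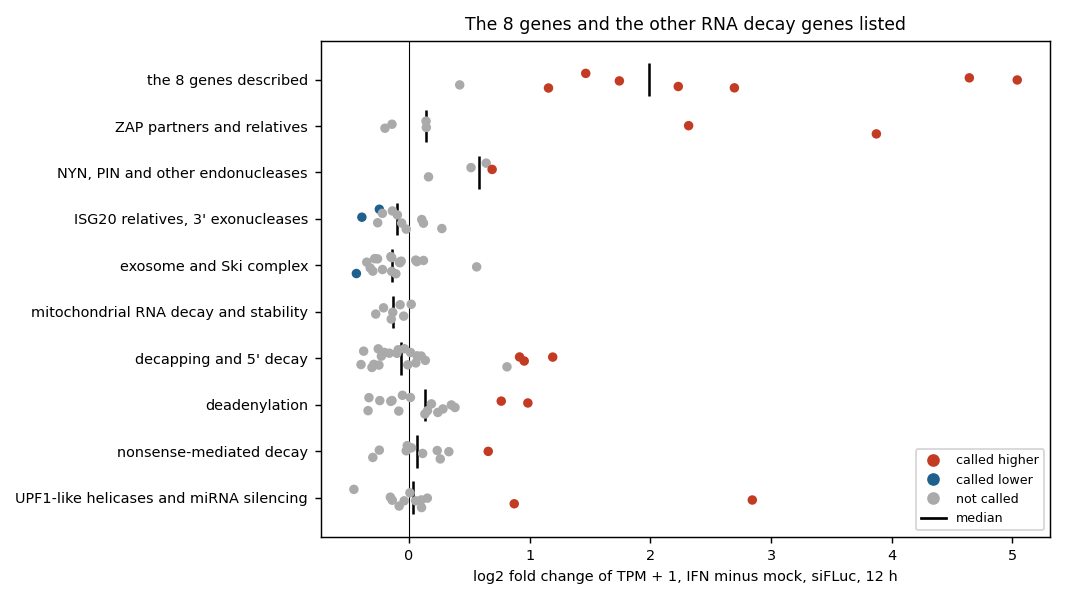
Log2 fold change of TPM + 1, IFN minus mock, with siFLuc at 12 h, for the 8 genes and for the other RNA decay genes by list. Red points were called higher, blue lower and grey not called, and vertical bars are medians. The median of the 8 genes is at 1.99, and among the listed genes PARP12, ZNFX1 and TRIM25 stand farthest to the right.

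The next comparison asks whether the BOP1 siRNA moved these transcripts. Under mock treatment at 8 h 1 of the 8 genes was called, against 2.16% of all genes tested. Under IFN at 8 h 0 were called, against 2%, under mock at 12 h 0, against 1.6%, and under IFN at 12 h 0, against 0.66%. At an unadjusted p under 0.05, limma had 1, 2, 0 and 0 of the 8, against 2076, 2191, 2051 and 1444 of the 16062 genes tested. The log2 differences, siBOP1 minus siFLuc, ran from -0.24 (XRN1) to 0.56 (MOV10) in mock cells at 8 h and from -0.06 (ZC3HAV1) to 0.55 (ISG20) under IFN at 8 h. At 12 h they ran from -0.16 (MOV10) to 0.41 (HELZ2) under mock and from -0.17 (N4BP1) to 0.25 (ISG20) under IFN.

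The gene called was MOV10, which in mock cells at 8 h was higher with siBOP1 by 0.56 on the log2 scale (SE 0.15, adjusted p = 0.0493), with no overlap between the libraries given above. The call sat at the threshold: it was lost in 6 of 9 alternative settings and on leaving out any 1 of the 6 libraries, down to a difference of 0.44 without the siFLuc library numbered 4 (adjusted p = 0.227). At 12 h under mock the difference was -0.16 (adjusted p = 0.722). The siFLuc mock group at 8 h is the low one, and the IFN comparison with siFLuc at 8 h uses the same libraries. KHNYN under IFN at 8 h was higher with siBOP1 by 0.48 (SE 0.14) with no overlap, which did not pass (adjusted p = 0.0931). It did pass with the library number as a block (adjusted p = 0.00870) and without the siFLuc IFN library numbered 1 (adjusted p = 0.0488). With median-of-ratios or quantile scaling it passed as well (adjusted p = 0.0149 and 0.0200). With the block 799 genes were called higher and 616 lower in this comparison, against 200 and 122 without it. SDR39U1, whose reads may not be separated from those of KHNYN, was itself higher by 0.22 in this comparison (adjusted p = 0.337). ISG20 under IFN at 8 h was at 415 ± 17.4 TPM with siBOP1 and 284 ± 25.7 TPM with siFLuc (SD, n = 3 each), also with no overlap. Its log2 difference of 0.55 (SE 0.18) did not pass (adjusted p = 0.143), and passed with the libraries numbered 1 and 2 only (0.44, adjusted p = 0.0159). At 12 h under IFN the libraries did not overlap either, and the difference was 0.25 (adjusted p = 0.811). With 3 libraries a group, a lack of overlap is not a test, and its share over all genes is not given here.

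**Figure D5:**
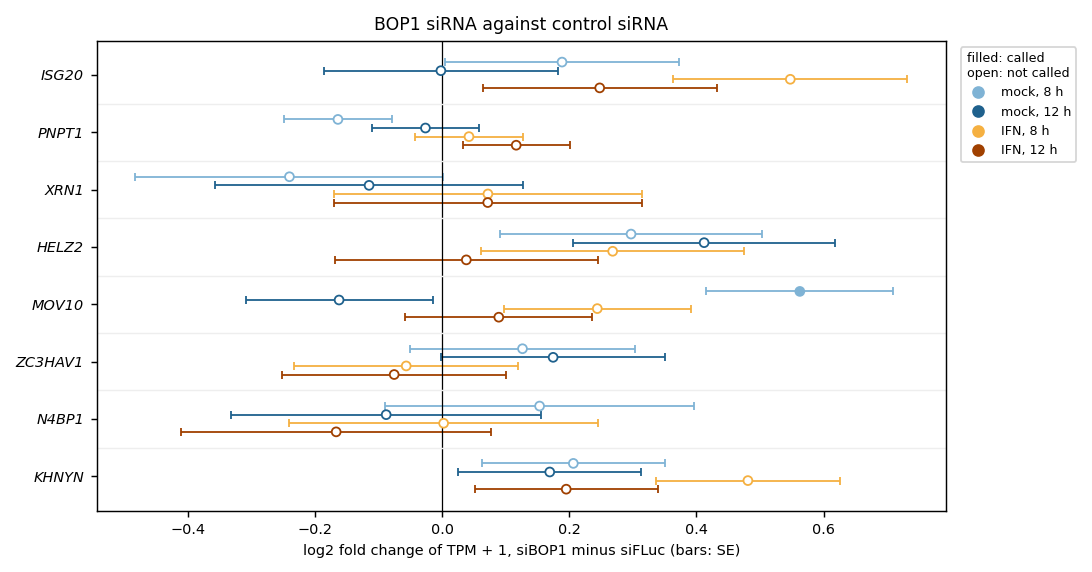
Log2 fold change of TPM + 1, siBOP1 minus siFLuc, for the 8 genes under mock treatment and IFN at 8 h and 12 h. Bars are standard errors, and the only filled point, which passed limma's adjusted p of 0.05, is MOV10 in mock cells at 8 h at 0.56.

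The interaction of siRNA and IFN tests whether the rise under IFN differed with BOP1 depletion. No member was called at 8 h or at 12 h, and neither was any other gene (0% of 16062 at each time). By limma 0 of the 8 had an unadjusted p under 0.05 at either time. Of all genes tested, 353 did at 8 h and 259 at 12 h. The difference between the fold changes ran from -0.32 (MOV10) to 0.36 (ISG20) at 8 h, with SE of 0.21 and 0.26, and from -0.37 (HELZ2) to 0.25 (MOV10) at 12 h, with SE of 0.29 and 0.21. These are small beside the fold changes of ISG20, HELZ2 and MOV10 themselves, but for KHNYN and ZC3HAV1 an SE of 0.20 and 0.25 is a large share of the fold change.

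The interaction of time and IFN compares the fold change at 12 h with that at 8 h. With siFLuc 0 of the 8 were called, against 0.00623% of all genes, which is 1 gene, and with siBOP1 0, against 0%. At an unadjusted p under 0.05 limma had 575 of all genes tested with siFLuc and 603 with siBOP1. Of the 8 genes it had 1 with siFLuc and 0 with siBOP1. With siFLuc that was MOV10, whose fold change was smaller at 12 h, at -0.46 (SE 0.21, adjusted p = 1). With siBOP1 MOV10 was at 0.11. ZC3HAV1 had a larger fold change at 12 h with both siRNAs, by 0.44 and 0.37 (SE 0.25 each), and neither passed (adjusted p = 1 each). So did ISG20, by 0.46 and 0.35 (SE 0.26 each), while HELZ2 with siBOP1 was at -0.41 (SE 0.29), none of them called. Of the 8 genes, 4 were above 0 with siFLuc and 4 with siBOP1.

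Levels at 12 h were also compared with those at 8 h within each siRNA and treatment, a comparison added after the values had been seen. No member was called: 0 of 8 in siFLuc mock cells against 0.131% of all genes, 0 in siBOP1 mock cells against 0.23%, 0 in siFLuc IFN cells against 3.53% and 0 in siBOP1 IFN cells against 2.96%. At an unadjusted p under 0.05, limma had 3, 2, 2 and 1 members, against 2067, 1549, 3094 and 2897 of the 16062 genes tested. ZC3HAV1 was lower at 12 h in mock cells with both siRNAs, at -0.74 with siFLuc and -0.69 with siBOP1 on the log2 scale (SE 0.18 each), and no 12 h mock library reached the lowest 8 h mock library. Its adjusted p was 0.0920 and 0.116. Without the siFLuc mock library numbered 4 at 12 h the siFLuc difference was -0.51 (adjusted p = 0.217). Under IFN the same differences were -0.30 and -0.32. MOV10 in siFLuc mock cells was higher at 12 h by 0.70 (adjusted p = 0.0662, and 0.0401 without the 12 h library numbered 4), and in siBOP1 mock cells it differed by -0.03. PNPT1 had lower means at 12 h in all 4 pairs of groups, with log2 differences of -0.32, -0.19, -0.29 and -0.21 (siFLuc mock, siBOP1 mock, siFLuc IFN, siBOP1 IFN), with adjusted p from 0.0618 to 0.495. The labels give no dates of transfection or harvest, so any difference between the 8 h and 12 h sets other than time cannot be told apart from it.

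Genes whose pattern over the 8 group means was most like that of each member were found by the root mean square difference of centred log2 values, as a description over 8 groups. The nearest to PNPT1 was TRIM5, at 0.09, followed by RTP4 and EIF2AK2. The nearest to ISG20 was SLC15A3, at 0.107, then IFI35 and IFITM3, and the nearest to HELZ2 was GBP1, at 0.19. XRN1 had NUB1, at 0.0814, then ERAP2 and EHD4, and MOV10 had PI4K2B, HLA-C and APOBEC3F, from 0.169 to 0.183. For the members that moved less, the nearest were ADGRF4, XDH and NUPR1 for ZC3HAV1, RIMS2 for N4BP1 at 0.0648, and PYCARD, POR and NUCB1 for KHNYN. A small distance means less for KHNYN, whose own group means spanned only 0.69 on the log2 scale, against 5.37 for HELZ2 and 4.90 for ISG20.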

How the data were processed

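The values are TPM as the authors deposited them, 1 column per library. The aligner, quantification tool, genome build and annotation are not given in the sources used here. The library kit selects mRNA and keeps strand, per the labels' protocols. Of the 24 columns, 16 carry a replicate number of the labels. The other 8, numbered 4, were placed in their group by name. No column was left out.

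Values of the 16062 genes reaching 1 TPM in 3 or more libraries were put on the log2(TPM + 1) scale and fitted in limma 3.58.1 (R 4.3.3): 1 mean per group over all 24 libraries, an intensity trend, Benjamini-Hochberg adjustment within each of 16 comparisons and a threshold of 0.05. The 4 comparisons of 12 h with 8 h and the GAAACT search were added after values were seen. The script was tested on simulated data. The 8 genes and all lists were chosen with earlier results of these data known. All 8 genes are named in every comparison. Of other decay genes, those called in all 4 IFN comparisons and a set of relatives are named, apart from 2 that are not reported here. DCP2, PNRC1, LSM4, LSM5, NUDT16, DXO, DIS3L, HBS1L, REXO2 and ERI3 were chosen after their values were seen.

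Same-numbered libraries of 1 time deviated together: the correlation across genes of their deviations from group means ran from 0.115 to 0.508. The fit with that number as a block is given where it changes a call. The pairing comes from the column numbers, and the number 4 is in no label. Other alternatives were a pseudocount of 0.1, other filters (none beyond a value above 0, or a mean of at least 5 TPM), median-of-ratios and quantile scaling, no trend, only the groups compared, only libraries 1 and 2, and leaving out each library. Symbols came from a table of Ensembl IDs, and 3 of the 8 IDs have the same version in GENCODE 29.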

Additional observations from a re-analysis of the deposited data

How the results depend on the processing

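The counts of members called higher under IFN (7, 8, 7 and 8 for siFLuc 8 h, siBOP1 8 h, siFLuc 12 h and siBOP1 12 h) were 7 to 7, 6 to 8, 7 to 8 and 7 to 8 over the other settings and 6 to 7, 6 to 8, 7 to 8 and 7 to 8 on leaving out 1 library. Of 480 values of single members under IFN, 453 kept their direction and their side of the threshold, 21 lost a call, all of ZC3HAV1 at 8 h or of KHNYN, 6 gained one and 0 reversed. For the BOP1 siRNA in mock cells at 8 h the count of 1 became 0 without a filter, with median-of-ratios or quantile scaling, without the trend, with only the groups compared, with libraries 1 and 2 only, and on leaving out any library (0 to 0). Under IFN at 8 h the count of 0 became 1 with either scaling, with the replicate block, with libraries 1 and 2 only, and without the siFLuc IFN library numbered 1 (0 to 1 over the libraries left out). For N4BP1 under IFN at 12 h the difference with siBOP1 of -0.17 ran from -0.29 to 0.0313 on leaving out 1 library and changed sign without the siFLuc IFN library numbered 4. For 12 h against 8 h, counts of 0 became 2 in siFLuc mock, 1 in siBOP1 mock and 1 in siFLuc IFN cells with the replicate block, 2, 2 and 1 with libraries 1 and 2 only, and 1 in siFLuc IFN cells with median-of-ratios scaling. Leaving out 1 library gave 0 to 1 in siFLuc mock cells, with 1 without the 12 h library numbered 4. Numbers did not pair libraries over the times: same-numbered deviations at 12 h and 8 h correlated from -0.113 to 0.196. The causes were not tested.

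Counts over all genes moved more. With the replicate block, the IFN comparisons had 1323, 1375, 1794 and 1826 genes higher and 2047, 3278, 2532 and 2661 lower (order as above), and the BOP1 siRNA comparisons had 1364 and 1415 at 8 h and 1231 and 606 at 12 h (mock and IFN). The block changed no other call of a member under IFN than that of KHNYN. With only the groups compared, the BOP1 siRNA comparisons had 41, 23, 10 and 1. Median-of-ratios scaling moved the median of all genes in siBOP1 cells at 8 h from -0.14 to -0.01 and the lower calls there to 698. Depth is unknown, so no limit from counting can be given.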
